A study of Mus musculus with 6 samples.

Results

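The 10 genes described here are the transcription factors best known for building the lens: Pax6, Foxe3, Tfap2a, Six3, Meis1, Sox2, Prox1, Maf, Sox1 and Pitx3. They are a list of names from textbook knowledge of the lens, drawn up with earlier results of these data known, and all 10 are among the 13024 genes of the deposited count table. RNA-Seq was performed on E14.5 mouse lenses of a mixed strain, Mixed:C57BL/6 + FVB, in 6 pools of 10 lenses from 5 embryos each. The 3 pools labelled Gata3 -/- (CKO) came from Gata3 f/f mice carrying Pax6-Cre, in which exon 4 of the GATA-family factor Gata3 is removed. The other 3 pools, named control here, are labelled wild type. The study gives their genotype as Gata3 f/f in its Methods and Gata3 f/wt in its Results, without Cre. Only the CKO lenses carried Cre, so an effect of Cre and an effect of Gata3 loss cannot be told apart. Pax6-Cre is driven by an ectodermal enhancer and the P0 promoter of Pax6, which act in the precursors of lens and cornea, so the driver rests on one of the genes described here.

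The embryonic lens consists of a front layer of dividing epithelial cells and a mass of elongated fibre cells, which leave the cell cycle and fill with crystallins. Pax6, Six3, Sox2 and Meis1 set aside the head ectoderm that becomes lens, and Foxe3 keeps the epithelium dividing. Prox1, Maf and Sox1 are needed for the cells to elongate and for the crystallin genes to be transcribed. The study names Pitx3 among factors with roles in early fibre differentiation and cell cycle exit, and Pitx3 is counted with the fibre-type factors below. Pax6, Six3, Sox2, Meis1 and Prox1 are also made in the neural retina, and Tfap2a in the surface ectoderm, which lie close to the dissected lens.

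No member passed the test between the groups, and neither did any of the 12879 genes tested by edgeR (0%). Pax6 was the most even of the 10, with a level that varied by 1.13-fold from the lowest to the highest pool. Foxe3, Maf, Sox1, Prox1 and Pitx3 stood at 2.11 to 2.59 times the mean of the other controls in control replicate 2, while Sox2, Six3 and Meis1 had their lowest value in that pool. The ratio of Pitx3 to Foxe3 within a library lay above all 3 control values in each of the 3 libraries labelled CKO. The ratio to Foxe3 did not overlap between the groups for 3.05% of all genes, a share that also covers genes without a peak in control replicate 2.

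Between 15157230 and 18811104 fragments were counted on genes in each library, and a single member drew 286 to 12432 of them, so that counting error was small beside the spread between pools. Values are given as CPM, which puts the libraries on a common size by TMM scaling, and log2 fold changes are those of the libraries labelled CKO against control. Gata3 itself drew 202, 386 and 156 fragments in the controls, in the order of replicates 1 to 3 used throughout, and 910, 1064 and 894 in the libraries labelled CKO. This went against the label, with a log2 fold change of 1.72 (standard error, SE, 0.40, adjusted p = 0.650 by edgeR's quasi-likelihood test with Benjamini-Hochberg adjustment, and 0.00163 by DESeq2), and of 2.32 without control replicate 2. Counts per gene do not show exons, so they do not check the deletion of exon 4, and each direction below is that of the libraries labelled CKO. Control replicate 2 stood apart from the other libraries, with 16.5% of its counts on the 16 crystallin genes against 5.47% to 9.31% elsewhere. Results that rest on it are therefore also given without it.

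**Figure D1:**
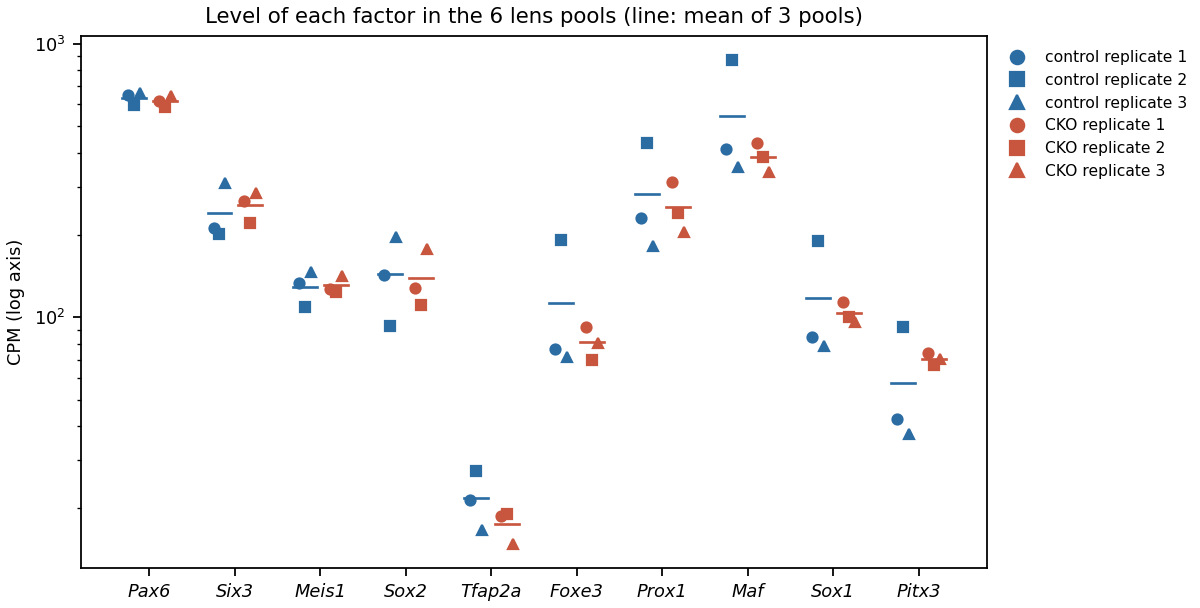
CPM of the 10 factors on a log axis in each of the 6 lens pools, with controls in blue, libraries labelled CKO in red, the replicate as the shape of the point and the group mean of 3 pools as a line. The groups overlap for each factor, and control replicate 2 (blue square) is highest for Tfap2a, Foxe3, Prox1, Maf, Sox1 and Pitx3.

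Pax6, the paired-domain factor at the head of eye development (chr2:105668900-105697364 of mm10, forward strand), was measured at 647, 598 and 662 CPM in the controls. The libraries labelled CKO held 619, 586 and 647 CPM. The values of the groups lay within a narrow common band, and the lowest of the 6 was that of CKO replicate 2. The means were 636 ± 33.6 and 617 ± 30.6 CPM (SD, n = 3 each), and the log2 fold change was -0.04 with a 95% interval from -0.25 to 0.16. Without control replicate 2 the fold change was -0.07, and the control and CKO values then no longer overlapped, though 647 CPM was the rounded value at the edge of each group.

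Foxe3, the forkhead factor of the lens epithelium (chr4:114925147-114926013, reverse strand), was at 76.3, 192 and 71.3 CPM in the controls. It was at 92.5, 69.9 and 80.4 CPM in the libraries labelled CKO. The CKO values lay around those of control replicates 1 and 3, far below control replicate 2. Its log2 fold change of -0.48 (SE 0.39, unadjusted p = 0.258 by edgeR) turned to 0.14 (SE 0.12) without control replicate 2.

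Tfap2a, an AP-2 factor of ectoderm and lens epithelium (chr13:40715302-40738376, reverse strand), was the scarcest member. The controls held 21.4, 27.3 and 16.8 CPM and the libraries labelled CKO 18.7, 19.1 and 14.9 CPM, with the lowest value in CKO replicate 3. The log2 fold change was -0.31 (SE 0.20), and -0.11 (SE 0.17) without control replicate 2. Without control replicate 3 it was -0.47 (SE 0.17, unadjusted p = 0.0304, adjusted p = 0.512 by edgeR's quasi-likelihood test with Benjamini-Hochberg adjustment), and only in that setting was the unadjusted p of Tfap2a under 0.05.

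Six3, a homeodomain factor of forebrain, retina and lens (chr17:85613608-85629302, forward strand), reached 213, 202 and 309.5 CPM in the controls. It reached 267, 221 and 284 CPM in the libraries labelled CKO, all between the lowest and the highest control. Its fold change on the log2 scale was 0.09 (SE 0.19) with all libraries and -0.01 without control replicate 2. Without control replicate 3, in which Six3 was highest, it was 0.31 (SE 0.12, unadjusted p = 0.0394, adjusted p = 0.512 by edgeR's quasi-likelihood test with Benjamini-Hochberg adjustment). Six3os1, the RNA gene on the opposite strand beside it, was counted at 448 to 596 CPM. It shares 106 exon bases with Six3, and the strand setting of the counting is not stated, so the 2 counts may hold some of each other's fragments.

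Meis1, a TALE homeodomain factor that acts on Pax6 in the lens placode (chr11:18879817-19018985, reverse strand), was at 133, 109 and 146 CPM in the controls. The libraries labelled CKO were at 127, 124 and 142 CPM. All CKO values fell inside the control range, and the log2 fold change was 0.02 (95% interval from -0.27 to 0.30).

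Sox2, the HMG-box partner of Pax6 (chr3:34650405-34652461, forward strand), was at 142, 92.9 and 196 CPM in the controls and at 128, 111 and 177 CPM in the libraries labelled CKO. The third replicate was the highest in each group, and all CKO values fell inside the control range. The log2 fold change was -0.05 (95% interval from -0.75 to 0.65). Its direction depended on the library left out, from -0.28 without control replicate 2 to 0.24 without control replicate 3.

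Prox1, the homeobox factor needed for fibre elongation (chr1:190118035-190170714, reverse strand), was at 230.1, 434 and 182 CPM in the controls. In the libraries labelled CKO it was at 314, 241 and 206 CPM, inside the control range. CKO against control gave a log2 fold change of -0.15 (SE 0.34) with all libraries and 0.31 (SE 0.21) without control replicate 2.

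Maf, the large Maf bZIP factor that drives crystallin transcription (chr8:115682942-115707794, reverse strand), was at 412, 871 and 355 CPM in the controls. The libraries labelled CKO were at 434, 385 and 341 CPM, near control replicates 1 and 3. For Maf the log2 fold change was -0.50 (SE 0.34, unadjusted p = 0.188 by edgeR) with all libraries, and 0.02 (SE 0.12) without control replicate 2.

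Sox1, the HMG-box factor needed for elongation of the fibres and for the gamma-crystallins (chr8:12395295-12400126, forward strand), was at 84.6, 190.4 and 78.6 CPM in the controls. It was at 113, 100.2 and 96.5 CPM in the libraries labelled CKO, each above control replicates 1 and 3 and below control replicate 2. The log2 fold change was -0.19 (SE 0.34) with all libraries. Without control replicate 2 it was 0.35 (SE 0.092, unadjusted p = 0.0064, adjusted p = 0.427 by edgeR's quasi-likelihood test with Benjamini-Hochberg adjustment).

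Pitx3, the homeodomain factor lost in the aphakia mouse, which forms no proper lens (chr19:46135685-46148326, reverse strand), was at 42.6, 92.4 and 37.3 CPM in the controls. It was at 74.0, 66.8 and 70.4 CPM in the libraries labelled CKO. The CKO values were close to each other and lay between control replicate 2 and the other controls. The log2 fold change was 0.30 (SE 0.34, unadjusted p = 0.410 by edgeR) with all libraries. Without control replicate 2 it was 0.83 (95% interval from 0.61 to 1.05, unadjusted p = 4.6e-05), and the adjusted p of 0.0591 by edgeR's quasi-likelihood test with Benjamini-Hochberg adjustment missed the threshold of 0.05. That value rests on 2 controls.

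In all, 0 of the 10 members passed an adjusted p of 0.05, as did 0 of the 12879 genes tested by edgeR, a background of 0%. At an unadjusted p under 0.05 the members again numbered 0 of 10, against 457 genes or 3.55% of all. Their groups did not overlap for 0 of 10 members, against 8.36% of all genes. DESeq2 called 85 genes at an adjusted p of 0.05, or 0.66%, with 0 members among them, and gave each member an adjusted p of 0.99985. The members' log2 fold changes had a median of -0.10, with 3 above and 7 below 0, beside a median of 0.00 over all genes. Six3, Meis1 and Pitx3 were those above. Scaling by total counts alone moved the median of all genes to 0.10 and gave 5 members above 0, with Pax6 at 0.06 and Sox2 at 0.02, but relative to that shift 3 were higher as before. It also moved the genes at an unadjusted p under 0.05 from 36.8% to 69.1% higher.

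Leaving out control replicate 2 turned the sign for Prox1, Maf and Sox1, though Maf only to 0.02, while Pitx3 was above 0 with and without it. These 4 fibre-type factors had a median log2 fold change of -0.17 with it and 0.33 without it, while the 6 epithelial-type factors had -0.05 and -0.08. That even median holds moves in both directions. Foxe3 turned from -0.48 to 0.14, and Tfap2a moved from -0.31 to -0.11. Six3 turned from 0.09 to -0.01 and Meis1 from 0.02 to -0.08. Sox2 moved from -0.05 to -0.28 and Pax6 from -0.04 to -0.07. Without control replicate 2, Sox1 and Pitx3 were the 2 of 10 members at an unadjusted p under 0.05, where 6.27% of all genes were. Both were higher in the libraries labelled CKO. Pax6, Sox1 and Pitx3 were then the 3 members whose groups did not overlap, against 21.8% of all genes. Without control replicate 3 the members at an unadjusted p under 0.05 were Tfap2a and Six3, 2 of 10 against 9.59% of all genes.

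**Figure D2:**
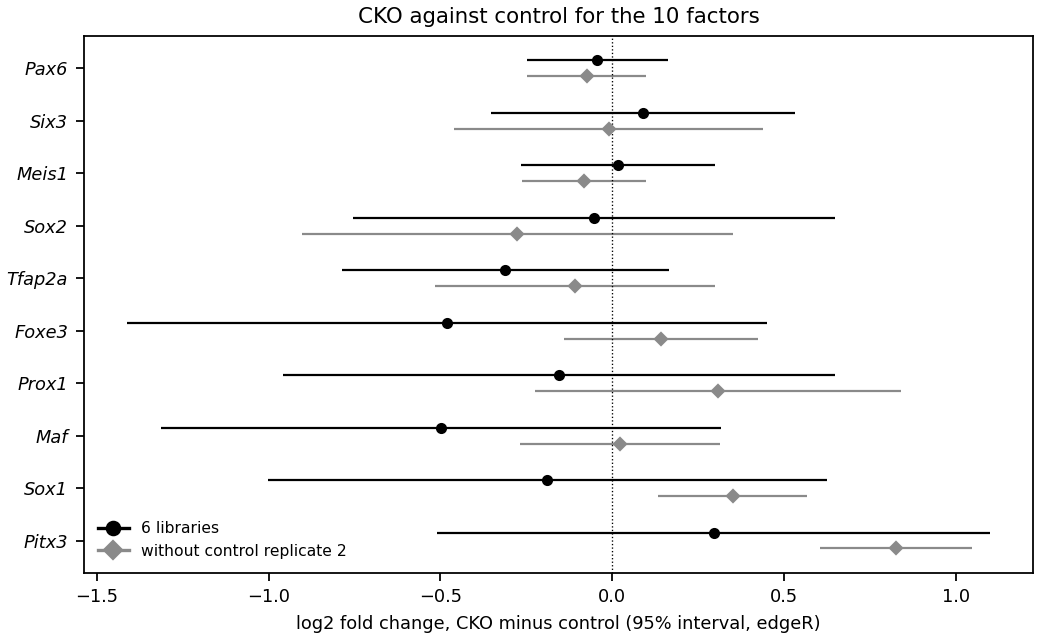
Log2 fold change (CKO minus control, x axis) of each factor with its 95% interval from edgeR, from all 6 libraries (black circles) and without control replicate 2 (grey diamonds). With all libraries each interval includes 0, and without control replicate 2 those of Sox1 and Pitx3 lie above 0.

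The members followed 2 profiles over the pools, which cut across the groups. Foxe3, Maf, Sox1, Prox1, Pitx3 and Tfap2a were highest in control replicate 2, as was the summed level of the lens fibre markers. Those 12 measured markers, among them the filament genes Bfsp1 and Bfsp2 and the membrane channel gene Mip, summed to 12042, 24992 and 8461 CPM in the controls and 11393, 8776 and 7617 CPM in the libraries labelled CKO. Foxe3 is an epithelial factor, and the sum of the 8 lens epithelium markers was also highest in control replicate 2. It was 3648 CPM there, of which Col4a1 gave 2311 CPM, against 1761 to 2205 CPM in the other pools. Itga6 and Mab21l1 went the other way, while each other marker of that list was highest there. Itga6 was at 289 CPM in control replicate 2 and at 394, 358 and 345 CPM in the libraries labelled CKO. Mab21l1 was highest in CKO replicate 3, at 154 CPM against 148 CPM in control replicate 2. The 6 measured blood markers also summed highest in control replicate 2, at 1446 CPM against 343 to 603 CPM. The part of blood or of tissue composition in these profiles was not tested.

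Sox2, Six3 and Meis1 were lowest in control replicate 2 and highest in control replicate 3. The 18 retina markers, all measured and none at 0, summed to 2478, 1481 and 3425 CPM in the controls, and to 2577, 2311 and 3174 CPM in the libraries labelled CKO. They took the same order in the controls as Sox2, Six3 and Meis1. Pax6 took that order too, over a much narrower range. The member most like Pax6 in profile was Sox2, with a Pearson correlation of 0.904. The genes whose profiles were most like that of Pitx3 were Pter, Epha2 and Rassf3, with Pearson correlations of 0.995 to 0.996 of the log2 CPM over the 6 libraries. With only 6 libraries, 30 to 370 genes lay above 0.95 for each member, so such a match singles out little. Prox1, although also a retinal gene, was highest in control replicate 2, as were the sums of the fibre and of the lens epithelium markers.

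In pooled tissue, fewer cells of a type and less RNA per cell cannot be told apart. The part of retinal RNA in Pax6, Sox2, Six3 and Meis1 was not tested. Mesenchyme markers (12 of 13 measured) summed to 2276 CPM in control replicate 1 and 4109 CPM in CKO replicate 2, against 257 to 532 CPM in the other pools. None of the 10 members had its highest value in either of these pools, and Pax6 and Foxe3 had their lowest in CKO replicate 2. The 9 surface ectoderm markers summed to 117, 98.7 and 47.5 CPM in the controls and 61.9, 175 and 79.9 CPM in the libraries labelled CKO, so their order was not that of Tfap2a.

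**Figure D3:**
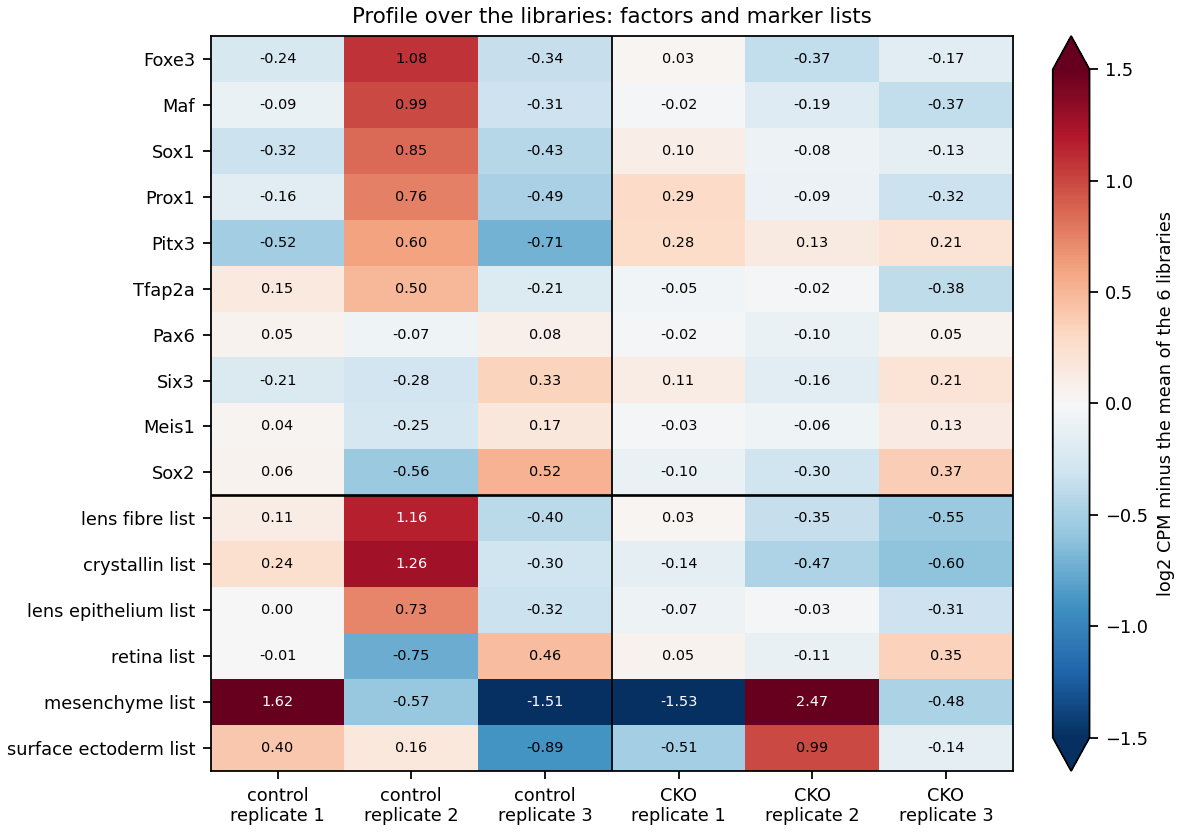
Log2 CPM minus its mean over the 6 libraries (colour and number) for the 10 factors, above the line, and for the summed CPM of 6 marker lists, below it. The upper factors share the red field of control replicate 2 with the fibre, crystallin and lens epithelium lists, Pax6 stays within 0.10 of its mean, and Sox2, Six3 and Meis1 run with the retina list.

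Ratios of 2 factors within a library do not depend on the scaling between libraries. Pitx3 to Foxe3 stood at -0.84, -1.05 and -0.93 on the log2 scale in the controls, and at -0.32, -0.07 and -0.19 in the libraries labelled CKO. The groups did not overlap, and the means differed by 0.75, or by 0.69 without control replicate 2. Over all genes the ratio to Foxe3 did not overlap for 3.05%. Foxe3 and Pitx3 were both highest in control replicate 2, and that share also covers genes without this peak. The ratios of Sox1, Maf and Prox1 to Pax6 and of Sox1 to Sox2 did overlap, with differences of -0.03, -0.34, -0.03 and -0.06.

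Further ratios were chosen after the values had been seen and are a description. Of the 45 pairs of members, 8 did not overlap. These were the pairs of Pitx3 with Foxe3, Tfap2a, Prox1, Maf and Sox1, those of Maf with Prox1 and Sox1, and that of Foxe3 with Sox1. No such share was taken over pairs of all genes. The ratio to Pitx3 did not overlap for 5 of the 9 other members, and for 7.14% of all genes. These 5 were, like Pitx3, highest in control replicate 2. A gene without that peak varies more against Pitx3 over the controls, so these shares are not alike and show no excess among the members. Pitx3 to Maf was -3.25 ± 0.02 in the controls and -2.45 ± 0.15 in the libraries labelled CKO (log2, SD, n = 3 each). Pitx3 to Sox1 was -1.04 ± 0.04 and -0.55 ± 0.09, and Maf to Sox1 was 2.22 ± 0.06 and 1.90 ± 0.07. These ratios kept a narrow range over the controls although the level of each factor varied more than 2-fold among them. The ratio to Maf did not overlap for 6.36% of all genes, and for Pitx3, Sox1 and Prox1 among the members, with the same limit. Without control replicate 2 the differences were 0.81 for Pitx3 to Maf, 0.48 for Pitx3 to Sox1 and -0.33 for Maf to Sox1.

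**Figure D4:**
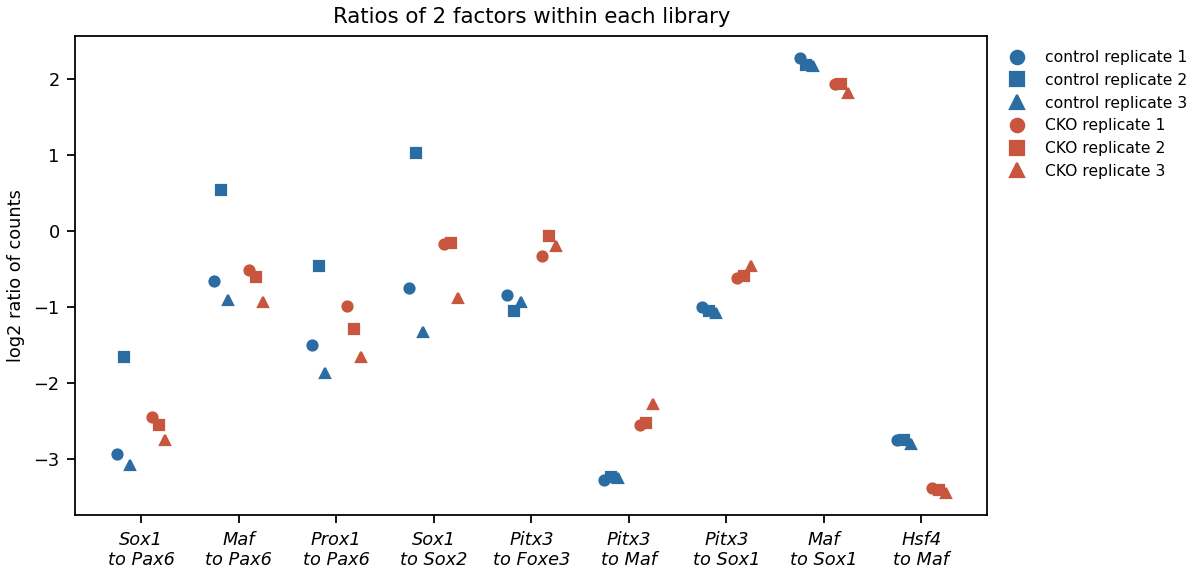
Log2 ratio of the counts of 2 factors in each library, with controls in blue and libraries labelled CKO in red. The first 4 ratios overlap between the groups, whereas those of Pitx3 to Foxe3, Maf and Sox1, of Maf to Sox1 and of Hsf4 to Maf do not.

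Of 54 other factors with a described part in lens development, 51 were measured, 39 with a log2 fold change above 0 and 12 below, with a median of 0.06. An unadjusted p under 0.05 was reached by 3 of them, or 5.88% against 3.55% of all genes, and all 3 were lower in the libraries labelled CKO. Hsf4, the heat shock factor of late fibre maturation, was at 61.3, 129.9 and 50.8 CPM in the controls and at 41.8, 36.2 and 31.3 CPM in those labelled CKO, with a log2 fold change of -1.15 (SE 0.36, unadjusted p = 0.0164). Eya1, a cofactor of Six3 and its relatives, was at 25.1, 43.9 and 18.4 CPM in the controls and at 12.7, 15.6 and 13.8 CPM in the libraries labelled CKO, with a log2 fold change of -1.05 (SE 0.31, unadjusted p = 0.0137). Mafa, a large Maf related to Maf, was at 6.65, 13.5 and 5.42 against 3.24, 4.17 and 4.21 CPM, with a log2 fold change of -1.13 (SE 0.37, unadjusted p = 0.0192). No value of these 3 overlapped between the groups. Over the 51 measured factors the groups did not overlap for 5, against 8.36% of all genes. Of these, 4 were lower in the libraries labelled CKO and 1, Jun, was higher. The adjusted p-values of Hsf4, Eya1 and Mafa were between 0.989 and 0.9998 by edgeR's quasi-likelihood test with Benjamini-Hochberg adjustment. By DESeq2 they were 0.101, 0.127 and 0.339. Without control replicate 2 the fold changes were -0.61, -0.62 and -0.62. Hsf4 to Maf, a ratio also chosen after its values were seen, was -2.77 ± 0.03 on the log2 scale in the controls and -3.41 ± 0.04 in the libraries labelled CKO (SD, n = 3 each).

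The small Mafs Mafg and Mafk had log2 fold changes of -0.26 (SE 0.25) and -0.20 (SE 0.18). Etv5, a transcriptional effector of FGF receptor signalling, had 0.01 (SE 0.11) and Jun 0.18 (SE 0.087).

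Of 19 paralogs of the members 14 were measured, with a median log2 fold change of 0.18, and Mafa was the only one at an unadjusted p under 0.05. Sox3, the third SOXB1 factor beside Sox1 and Sox2, was at 10.6 to 14.3 CPM in the controls and 10.4 to 17.7 CPM in the libraries labelled CKO. Six6 and Meis3 were lowest in control replicate 2 and highest in control replicate 3, as Six3 and Meis1 were, and had log2 fold changes of 0.06 (SE 0.23) and 0.10 (SE 0.28). Pitx1 was highest in CKO replicate 2, at 5.19 CPM. Meis2, Six2, Six4, Six5, Tfap2b and Tfap2c had log2 fold changes from -0.12 to 0.29 with overlapping groups.

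Of the genes that the members are known to act on, the 16 crystallins had a median log2 fold change of -1.19, and 10 of them were lower in the libraries labelled CKO at an unadjusted p under 0.05, against 3.55% of all genes in either direction. Without control replicate 2 the median was -0.63. The ratio of the crystallin sum to 3 fibre factors, also chosen after the values were seen, was lower in the libraries labelled CKO. On the log2 scale it differed by -0.42 for Maf, -0.74 for Sox1 and -1.22 for Pitx3, with no overlap of the groups. Over all genes the ratio to Maf did not overlap for 6.36% and that to Pitx3 for 7.14%, shares that also cover genes without the peak in control replicate 2. For Sox1 this share was not taken. Among 10 further described targets, Dnase2b, the nuclease that clears fibre nuclei, had a log2 fold change of -4.64 (SE 0.59). Bfsp1 and Bfsp2 had -2.72 (SE 0.47) and -1.55 (SE 0.34), and all 3 had an unadjusted p under 0.05. These values were -4.15, -2.004 and -1.08 without control replicate 2. Mip, with -0.85 (SE 0.39), and the cell cycle inhibitor Cdkn1c, with -0.64 (SE 0.30), did not reach that p, and without control replicate 2 they had -0.28 and -0.18. The 10 targets had a median of -0.55 with that library and -0.06 without it. Cdkn1b (0.09), Pdgfra (-0.23), Fgfr1 (0.12), Fgfr2 (0.08) and Fgfr3 (-0.45) had groups that overlapped.

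Among the measured neighbours of the members on the chromosome, Sox2ot, the long RNA gene that contains Sox2 in its intron, was at 51.7, 101 and 33.7 CPM in the controls and 50.3, 36.5 and 37.5 CPM in the libraries labelled CKO. It was thus highest in control replicate 2, where Sox2 was lowest. Its log2 fold change was -0.58 (SE 0.39). Beside Pax6, Elp4 had -0.10, Immp1l 0.09 and the antisense gene Pax6os1 0.17. Gbf1, next to Pitx3, had -0.04 and Wwox, next to Maf, -0.25, and all these groups overlapped. Maf, Meis1, Tfap2a, Prox1, Six3, Pitx3 and Sox1 share exon bases with other genes annotated in GENCODE. With an antisense gene Maf shares 440 and Meis1 896, and Pitx3 shares 10 with Elovl3. Meis1 also shares 1029 with Gm37818 on its own strand. Whether all of these genes were in the RefSeq annotation used for the counting was not checked, so the members' counts carry that uncertainty.

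Levels of different genes were compared as CPM per kilobase of exon. With the union of annotated exons as the length, the control means ran from 130 for Foxe3 through 69.9 for Sox2, 66.3 for Maf, 54.4 for Pax6, 44.4 for Six3, 37.6 for Pitx3, 33.7 for Prox1, 24.4 for Sox1 and 12.3 for Meis1 to 4.45 for Tfap2a. Neighbours in this order overlapped over the control libraries, apart from Sox1 over Meis1 and Meis1 over Tfap2a. The upper part of the order depended on the gene model. Foxe3 is annotated with an exon of 867 bases in GENCODE and 1625 bases in RefSeq, and the Pax6 union of 26 transcripts spans 11694 bases. Lengths based on RefSeq were the span of the RefSeq model for Foxe3, Sox1, Sox2 and Maf. For the other members they were the longest GENCODE transcript linked to a RefSeq mRNA. They need not be the exons used for the counting. With these lengths Pax6 led at 204 ± 10.8, followed by Maf at 149.97 ± 77.7 and Foxe3 at 69.6 ± 41.8 CPM per kilobase (SD, n = 3). Only Sox1 over Tfap2a was then apart, and Tfap2a was lowest under each length.

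Gata3 binds the letters AGATAA or AGATAG and TGATAA or TGATAG, which were looked for on either strand from 250 bases before to 50 bases after each RefSeq start (GRCm38.p6, the assembly of mm10). For 9 of the 10 members 12 such windows were given, and for Maf none. Pax6 was the 1 of 9 with a match, against 33.0% of the 27025 genes with a window. It lies 208 to 203 bases before the downstream of 2 Pax6 starts, in the 250 bases shown here because they hold the only match (chr2:105682213-105682462, forward strand). Capitals mark the match.

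Pax6 start 2: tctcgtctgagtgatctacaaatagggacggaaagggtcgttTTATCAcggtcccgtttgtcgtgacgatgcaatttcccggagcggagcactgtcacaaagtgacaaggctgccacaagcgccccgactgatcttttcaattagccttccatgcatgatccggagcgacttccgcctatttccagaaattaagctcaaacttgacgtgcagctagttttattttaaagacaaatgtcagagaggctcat

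The core GATA alone, which each of those longer motifs contains, occurred in the windows of 6 of 9 members, against 61.5% of all genes, and so near the share of any promoter. The windows of Foxe3, Meis1 and Pitx3 held none, which says only that these letters are not in them. The upstream matches closest to a start are shown for Pax6 (chr2:105668852-105668881, forward strand), Six3 (chr17:85620792-85620821, forward strand) and Sox1 (chr8:12395488-12395517, forward strand), with the core in capitals as it reads on the gene's strand. A match is a description of the letters and not a site.

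Pax6 start 1: cattgctggcgtgGATAttaaggaaagtta
Six3: tggatttaggggaGATAttatgaggctgtt
Sox1: cccgcgcccagtgTATCtactccctcccca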

How the data were processed

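The authors made paired-end, strand-specific libraries, aligned reads to mm10, counted fragments per RefSeq gene (UCSC, March 2017) and deposited the raw counts. Only genes whose mean FPKM passed 1 in at least 1 group are in the table. The submitters' processing notes name Trim Galore, TopHat2 2.0.13, HTSeq 0.6.1, Cuffdiff 2.2.1 and DESeq2. How HTSeq treated strand and overlapping genes is not given in the sources used here. Libraries held 15157230 to 18811104 counts. CKO samples are numbered as in their titles, 1 to 3, while their descriptions number them 2 to 4. Replicates are separate pools.

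The 12879 genes that reached 10 counts in 3 or more libraries were scaled by TMM. They were fitted by edgeR 4.0.16 under R 4.3.3 (quasi-likelihood, robust), with Benjamini-Hochberg adjustment over all of them. The test was tried on simulated data. Alternatives were DESeq2 1.42.0, limma voom 3.58.1, other factors and filters, crystallins left out of the library sizes, the replicate number as a block, and each library left out. The lengths based on RefSeq were added after seeing the data. Profile likeness used log2 CPM with a prior count of 1 and genes of at least 10 CPM on average. Positions and exon lengths came from GENCODE M21 (GRCm38), promoters from RefSeq. Named are the 10 members, Gata3, their measured paralogs and neighbours, the described targets, Hsf4, Mafg, Mafk, Etv5, Jun and other lens factors with an unadjusted p under 0.05. Some genes that this rule names are not reported here. The members and lists were chosen with earlier results of these data known. Figures were drawn in Python 3.11.15 with matplotlib 3.10.9.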

Additional observations from a re-analysis of the deposited data

How the results depend on the processing

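Of 160 values of single members over 16 alternatives, 148 kept their direction and stayed short of the threshold, and 12 changed sign. By edgeR 0 genes passed the adjusted threshold, by DESeq2 85 and with total counts alone 1, and 0 to 1 with a library left out. Genes at an unadjusted p under 0.05 numbered 457, and 271 to 1234 with a library left out: 148 to 769 lower and 121 to 489 higher. With total counts alone they were 191 lower and 428 higher. Members at an unadjusted p under 0.05 numbered 0 to 2 and other lens factors 2 to 6 with a library left out. The median log2 fold change of the fibre-type members ranged from -0.40 to 0.33, that of the other lens factors from 0.013 to 0.10 (0.16 with total counts alone) and that of the described targets from -0.79 to -0.064. The extremes came without control replicate 2 or 3 in most of these, and the cause was not tested.

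Signs changed with total counts alone for Pax6 (0.055) and Sox2 (0.024). With a library left out, the log2 fold change ranged from -0.73 to 0.14 for Foxe3, -0.010 to 0.31 for Six3, -0.082 to 0.11 for Meis1, -0.28 to 0.24 for Sox2, -0.39 to 0.31 for Prox1, -0.73 to 0.022 for Maf and -0.41 to 0.35 for Sox1. It ranged from -0.46 to 0.045 for Mafg, -0.073 to 0.065 for Etv5, -0.54 to 0.095 for Pdgfra, -0.16 to 0.35 for Fgfr2 and -0.72 to 0.13 for Fgfr3. DESeq2 put Gata3 past the threshold (1.72, adjusted p = 0.00163), as it did Dnase2b, Bfsp1 and Bfsp2. The order of levels kept 2 of 10 ranks with the lengths based on RefSeq, and the core GATA was in 6 members' windows.

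Replicate numbers are shared by the groups, but same-numbered libraries deviated from their group means with correlations of -0.49, 0.09 and 0.44, so the numbers were not taken to pair them. With the replicate block, 516 genes had an unadjusted p under 0.05 and 0 passed the adjusted threshold, with 0 members at either, and the median of the members was -0.06. The comparison of Sox1 and Sox2 proteins was not run, since no protein sequences were used here. The precision is limited by 3 pools a group, by control replicate 2 and, between genes, by the gene model.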
